A study of Mus musculus with 32 samples.

Results

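Stretches of the autosomes that carried histone H3 lysine 9 trimethylation (H3K9me3) at embryonic day E16.5 and at no other sampled stage were described in male germ cells of Morc1 mutant mice. The autosomes were divided into 1 kb bins counted from position 0, and a bin was called in a peak list when at least 50% of it lay in peaks of that list. A bin was E16.5 only when it was called in both E16.5 lists, Morc1 heterozygous (het) and knockout (KO), and in none of the 6 lists of E13.5, postnatal day 0 (P0) and postnatal day 3 (P3). In all, 13251 bins met this rule, 0.553% of 2397717 autosomal bins and a subset of the 494208 bins called in at least 1 list. Adjacent bins were joined into 9545 runs. The bins were thus chosen on the peak lists themselves, and their presence at E16.5 and absence elsewhere is a description and not a result.

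The series profiled germ cells from the testis of Mvh-Venus transgenic mice, a line with a fluorescent reporter named after the germ cell gene Mvh (Ddx4). The 4 stages were E13.5 and E16.5 in the fetus and P0 and P3 after birth. At each stage the animals were Morc1 (+/-) or Morc1 (-/-); both genotypes therefore carried at least 1 mutant allele, and no wild-type group was analysed here. Each of the 8 groups of stage and genotype had 2 H3K9me3 samples and 2 samples precipitated with an antibody against histone H3, and each H3K9me3 group was represented by 1 peak list. A list gives the position of each peak and no height or p-value. There was hence no replicate error, no read depth and no test between groups. In such bulk chromatin a mark carried by fewer cells and a weaker mark in every cell cannot be told apart, and the lists hold no expression values with which to check the cell type. The lists held between 50191 autosomal peaks (E13.5 het) and 89020 (P0 KO), and covered between 159.7 and 324.0 Mb. The 2 E16.5 lists were of intermediate size, with 74722 peaks over 292.6 Mb in het and 70487 peaks over 268.7 Mb in KO.

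H3K9me3 is laid down by methyltransferases such as SETDB1 and the SUV39H enzymes and is bound by HP1 proteins, which compact chromatin. In the germ line it covers many transposons and silent gene clusters. The period sampled here is the gonocyte stage, in which male germ cells arrest their cell cycle in the fetal testis and regain the DNA methylation that they lost earlier. Morc1 encodes a nuclear ATPase of the germ line with a known role in transposon silencing.

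The starts of 4 genes and 3 microRNAs are printed as examples of sequence in or beside the bins. They do not represent the set: few gene starts were involved, and no sequence of the runs between genes was available. The promoter windows run from 250 bases before to 50 after a RefSeq start (build GRCm38.p6) and are printed 5′ to 3′ on the strand of the gene, with CG dinucleotides in capitals. Adam29 (chr8:55906915-55907214, minus strand) lies at the end of the longest run that touches a gene. That run ends at 55907000, so most of the Adam29 window lies beyond it. Olfr131 (chr17:38082927-38083226, minus strand) and Olfr788 (chr10:129472444-129472743, plus strand) lie in the 2 longest runs over the start of a gene whose window had no call at another stage. Itm2c (chr1:85894260-85894559, plus strand) is the window richest in CG among those called at E16.5 alone. These 4 were chosen after their values were seen.
Adam29: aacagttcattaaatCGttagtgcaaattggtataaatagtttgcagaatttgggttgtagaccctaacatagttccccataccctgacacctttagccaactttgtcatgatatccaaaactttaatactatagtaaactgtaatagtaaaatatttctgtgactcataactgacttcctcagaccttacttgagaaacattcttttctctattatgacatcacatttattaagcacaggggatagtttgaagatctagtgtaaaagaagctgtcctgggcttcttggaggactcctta
Olfr131: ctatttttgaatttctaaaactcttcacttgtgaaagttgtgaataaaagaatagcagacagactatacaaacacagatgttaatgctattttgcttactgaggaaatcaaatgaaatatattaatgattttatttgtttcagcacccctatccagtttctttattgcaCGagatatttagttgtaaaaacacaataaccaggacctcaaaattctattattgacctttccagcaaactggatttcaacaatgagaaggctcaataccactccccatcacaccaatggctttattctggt
Olfr788: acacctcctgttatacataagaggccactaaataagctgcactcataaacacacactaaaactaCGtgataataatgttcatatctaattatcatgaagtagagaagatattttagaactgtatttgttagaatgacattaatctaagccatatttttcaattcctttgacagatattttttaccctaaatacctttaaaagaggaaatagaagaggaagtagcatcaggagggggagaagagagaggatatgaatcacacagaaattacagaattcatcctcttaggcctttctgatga
Itm2c: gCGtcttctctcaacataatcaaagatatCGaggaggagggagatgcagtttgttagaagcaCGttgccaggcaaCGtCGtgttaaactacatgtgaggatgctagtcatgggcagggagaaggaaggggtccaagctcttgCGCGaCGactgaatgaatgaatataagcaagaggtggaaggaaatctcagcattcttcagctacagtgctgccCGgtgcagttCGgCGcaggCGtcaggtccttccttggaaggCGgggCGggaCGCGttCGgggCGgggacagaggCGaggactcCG
The first 3 windows hold 1 CG each and between 33.0% and 35.3% G and C. The Itm2c window holds 20 CG and 55.3% G and C.

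The microRNAs come from 1 cluster inside the gene Mcm7 on chromosome 5, and the seed (bases 2 to 8) is in capitals.
mmu-miR-106b-5p: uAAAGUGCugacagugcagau
mmu-miR-93-5p: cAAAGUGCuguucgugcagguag
mmu-miR-25-3p: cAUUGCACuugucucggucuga
The first 2 share the seed AAAGUGC, whereas miR-25-3p has AUUGCAC.

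The E16.5-only bins were a small part of the E16.5 territory and were mostly short. They made up 5.32% of the 249156 bins called in both E16.5 lists (95% Wilson interval 5.23 to 5.41%), and these bins in turn were 10.4% of all autosomal bins. That share was 15.9% in het lists alone, 9.80% in KO lists alone and 3.30% when no base could be called at another stage. The number of bins depended on which lists had to lack a call: it was 24365 without the P0 lists and 21486 without the E13.5 lists. The same rule applied to the other stages gave 5346 bins at E13.5 (3.75% of that stage's bins, 0.223% of all bins), 11053 at P0 (4.24%, 0.461% of all bins) and 14597 at P3 (6.26%, 0.609% of all bins). By comparison, 98218 bins, 4.1% of the total, were called in all 8 lists. Of the 9545 E16.5-only runs, 7091 (74.3%) were a single bin, 1704 were 2 kb long, 750 (7.86%) were at least 3 kb and 112 at least 5 kb. The longest spanned 13 kb. Runs of at least 3 kb were 4.91% of the E13.5-only, 3.57% of the P0-only and 5.16% of the P3-only runs, so that the E16.5 set held the highest share of longer runs among the 4. In bins called in all 8 lists that share was 37.7%, and the longest run reached 49 kb.

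**Figure D1:**
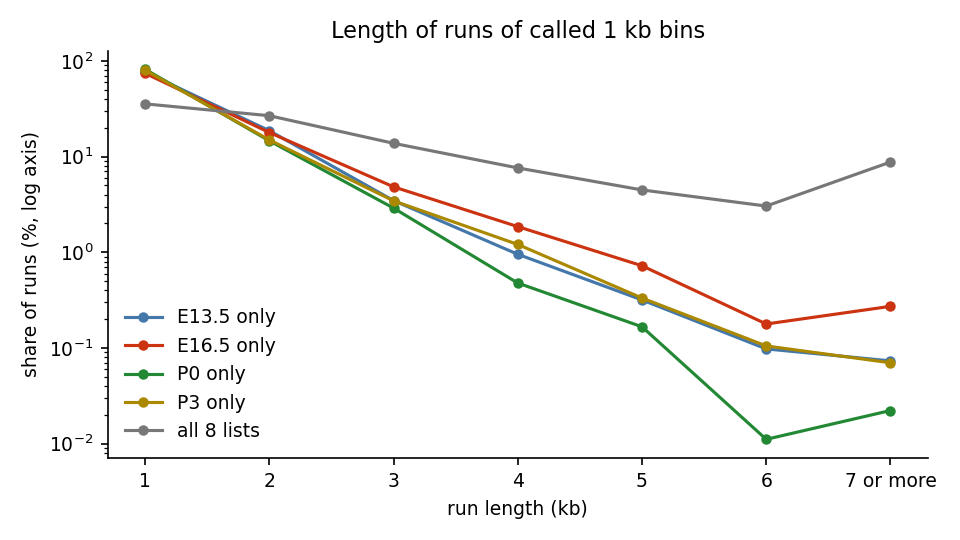
Share of runs (%, log axis) against run length in kb for bins called at 1 stage only and for bins called in all 8 lists. Single bins made up 74.3% of E16.5-only runs, and from 3 kb upward the E16.5-only line lies above those of the other 3 stages and below that of the bins called in all lists.

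Coverage within the chosen bins was high at E16.5 and low elsewhere, as the rule requires. Peaks covered a mean of 903 bp of each 1000 bp bin in E16.5 het and 876 bp in E16.5 KO, and 6078 bins (45.9%) were fully called in both. In the other lists the mean ranged from 16.6 bp (P3 het) to 54.4 bp (P0 KO). No base was called in any of those 6 lists in 8215 bins (62.0%). P0 left the most traces, with some called bases in 2670 of the bins (20.1%) in KO and 1838 (13.9%) in het, against 955 (7.21%) in P3 het. Near the threshold, 1960 bins were kept with 50 to 60% coverage in the weaker E16.5 list, and 2757 others missed with 40 to 50%. Another 1519 were kept with 40 to 50% coverage in the strongest other list, and 2430 were left out with 50 to 60%.

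Het and KO overlapped less among sites without a call at another stage than among sites with one, a comparison made on the lists that chose the bins. One class was formed by lacking any further call and the other by having one. The direction is therefore tied to that choice and is a description, and the intervals below hold for counting error alone. Among bins called at no other stage, 28561 were called in E16.5 het and 18641 in E16.5 KO, and 13251 in both. Of the het bins 46.4% were thus found in KO, and of the KO bins 71.1% in het. Among bins also called in at least 1 list of another stage, 89.4% of the het bins were found in KO and 94.4% of the KO bins in het. Of the bins called in either genotype, both called 39.0% (38.5 to 39.5%) without and 84.9% (84.7 to 84.98%) with a call at another stage. The requirement of a call in both genotypes therefore removed 15310 bins that were called at E16.5 in het alone and 5390 in KO alone. The E16.5 het list was the longer of the pair, and the part of list length in this difference was not tested.

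The runs lay mostly beside chromatin that was called at other stages. Of the 9545 runs, 6586 (69.0%, interval 68.1 to 69.9%) had a flanking bin that was called in a list of another stage, and in 1092 (11.4%) both flanking bins were called. A further 2315 (24.3%) lay within 10 kb of such a bin. Only 644 runs (6.75%, 6.26 to 7.27%) stood more than 10 kb away, from 3.66% on chromosome 3 to 12.6% on chromosome 11. That share was 12.5% when the rule was applied to het lists alone, 10.5% without the P0 lists and 11.0% when no base could be called at another stage. Counted by runs, the flanking call was most often at P0, in 5134 runs (53.8%), followed by P3 in 3394 (35.6%) and E13.5 in 3050 (32.0%). The P0 lists also covered the most of the genome and the E13.5 lists the least. Set against each list's share of all autosomal bins, the order differed. Bins 1 kb from a run were called at 1.60 (het) and 1.79 times (KO) that share at E13.5. At P0 they were called at 1.43 and 1.76 times, and at P3 at 0.87 and 1.23 times. At each of these stages the KO list touched more runs than the het list, with 45.8% against 35.7% at P0, 30.1% against 19.9% at P3 and 26.0% against 20.6% at E13.5. The KO list was also the longer at these 3 stages. In the other single-stage sets, 49.0% of E13.5-only, 70.7% of P0-only and 73.8% of P3-only runs were adjacent to a call of another stage. More than 10 kb away stood 19.7%, 8.24% and 9.98% of them. A position mostly beside other calls was thus shared with P0-only and P3-only runs. Of all autosomal bins 20.6% were called in at least 1 list, but their distance to such calls was not counted.

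Wider surroundings of the runs were called more often than the genome in all 8 lists. At 50 kb from a run, 28.8% of bins were called in E16.5 het and 26.0% in E16.5 KO, against 12.2% and 11.2% of all autosomal bins, or 2.36 and 2.32 times the genome. P0 reached 23.5% in het and 23.4% in KO, or 1.82 and 1.73 times the genome. P3 reached 18.8% and 20.1% (1.62 and 1.58 times), and E13.5, at which 6.66% (het) and 7.59% (KO) of all bins were called, reached 13.3% and 14.9% (2.004 and 1.96 times). These values count neighbouring E16.5-only bins, which the rule fixed as called at E16.5 alone. Without such bins, both at 50 kb and in the genome, E16.5 het stood at 26.8% (2.29 times) and E16.5 KO at 23.9% (2.23 times). P0 then stood at 24.1% in both genotypes, above E16.5 KO, and E13.5 at 13.7% and 15.3% (2.05 and 2.003 times), close to the E16.5 ratios. Single-stage bins of the other stages were kept, so this step could lower the E16.5 values alone. Right at the edge of the runs, 1 kb away, E16.5 het stood at 50.5% and E16.5 KO at 41.5%, while P3 het stood at 10.1%, below its genome-wide 11.6%. A peak can span more than 1 bin, so calls right beside the chosen bins are tied to the rule. The contrast at the edge is thus a description.

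**Figure D2:**
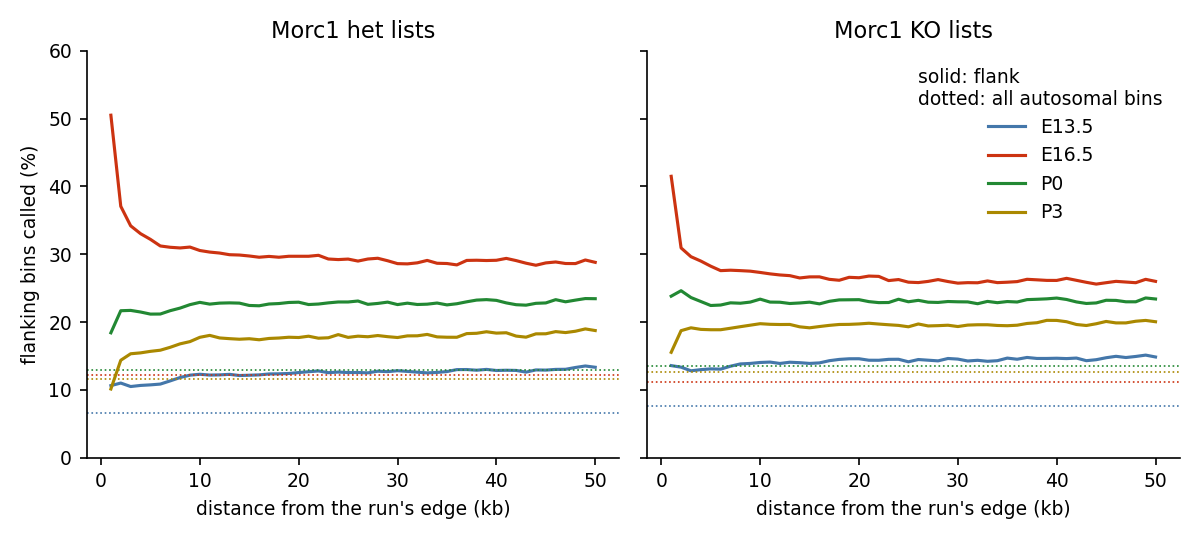
Percentage of bins called in each list (y axis) against the distance in kb from the edge of E16.5-only runs (x axis), for het lists on the left and KO lists on the right. Dotted lines give each list's share of all autosomal bins. The E16.5 lines fall from 50.5% and 41.5% at 1 kb to 28.8% and 26.0% at 50 kb. The lines include neighbouring E16.5-only bins, without which the E16.5 KO value at 50 kb is 23.9%, below P0. Single-stage bins of P0 were kept in that count.

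The peaks that carried these bins were split by whether they shared a base with a peak of another stage. Of 74722 autosomal E16.5 het peaks, 8594 (11.5%) contained or touched an E16.5-only bin, and 2760 of these (32.1%) shared no base with a peak of another stage. In KO, 8768 of 70487 peaks (12.4%) did so, and 2994 of these (34.1%) had no counterpart. The share without a counterpart was 9.12% over all het peaks of this stage and 6.61% over all KO peaks. The bins were chosen for lacking calls at other stages, so a higher share among their peaks follows from the rule. The peaks without a counterpart had a median length of 1328 bp in het and 1255 bp in KO, and 30.3% and 46.1% of them had the length of 1001 bp that was the most common in the lists. The longest reached 15040 bp in het and 12492 bp in KO. Peaks with a counterpart were long, with a median of 4996 bp in het and 4380 bp in KO, against 2393 and 2366 bp over all peaks. A peak that reaches beyond the chosen bin to a call of another stage is bound to be longer, so this length is a description.

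The E16.5-only runs lay over 500 kb from a gene more often than the runs of the other sets. Position relative to genes was not used to choose the bins. Of the runs, 2890 (30.3%, interval 29.4 to 31.2%) had their midpoint over 500 kb from the nearest RefSeq protein-coding gene, where 8.40% of all autosomal bins lie. The corresponding share was 16.3% (15.9 to 16.7%) for runs called in all 8 lists, 12.4% (11.7 to 13.1%) for P0-only runs, 3.57% (3.04 to 4.18%) for E13.5-only runs and 2.65% (2.37 to 2.96%) for P3-only runs. The E16.5-only share was higher than that of the all-list runs on 19 of 19 autosomes, and also higher than the E13.5-only and P3-only shares on all 19. Against P0-only runs it was higher on 18, the exception being chromosome 11. The intervals treat runs as independent, which neighbouring runs are not, and for that reason the counts over autosomes are given beside them. Outside gene bodies the median distance to a gene was 325.4 kb for E16.5-only runs, 120.4 kb for all-list runs, 99.5 kb for P0-only, 64.0 kb for P3-only and 34.2 kb for E13.5-only runs.

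Gene bodies held 2048 E16.5-only runs (21.5%, 20.6 to 22.3%), against 41.0% of all autosomal bins. In runs called in all 8 lists the share was 20.4% (19.96 to 20.8%), an interval that overlaps, and the E16.5-only share was the higher on 13 of 19 autosomes. E13.5-only runs (45.3%) and P3-only runs (5712 of 11425) were genic more often, and P0-only runs were so in 23.7% of cases. The E16.5-only runs that stood alone were genic more often than the adjacent ones, at a share near the 41.0% of all autosomal bins. Of the 644 runs more than 10 kb from any call of another stage, 40.7% lay in gene bodies and 14.6% over 500 kb from a gene. Of the 6586 adjacent runs, 18.8% lay in gene bodies and 33.1% over 500 kb away. The 6 other lists called 3.26 to 7.88% of bins in gene bodies and 16.0 to 27.6% of bins over 500 kb from a gene. Distance to their calls is thus tied to position, and its part in this contrast was not tested. Long runs followed the adjacent ones, with 9.06% of at least 3 kb against 3.11% among those that stood alone.

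**Figure D3:**
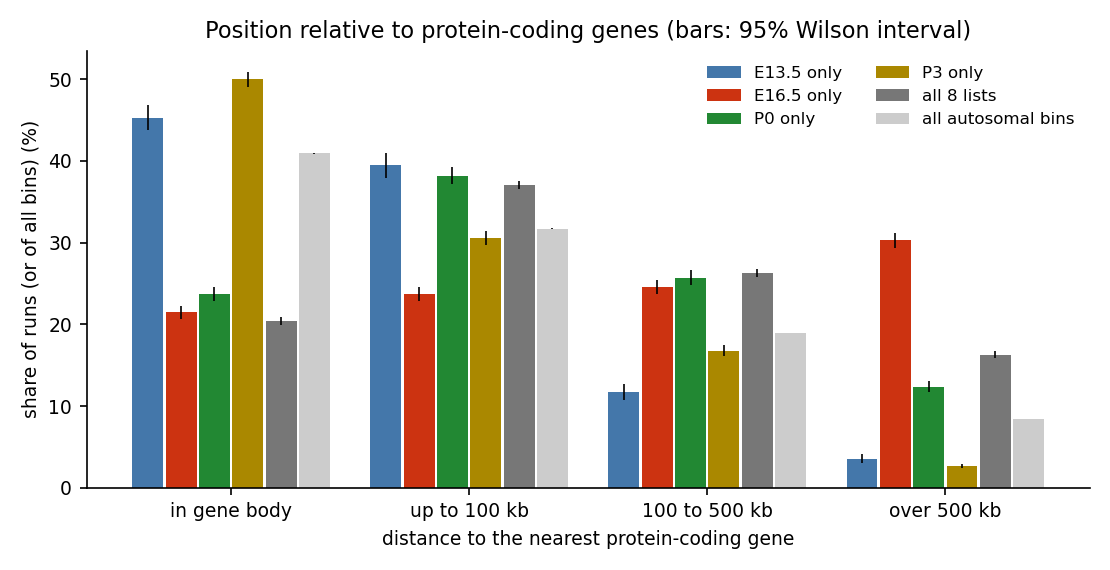
Share of runs (%, with 95% Wilson intervals as bars) by the distance of their midpoint to the nearest protein-coding gene, for each single-stage set, for bins called in all 8 lists and, in light grey, for all autosomal bins. In the class over 500 kb the E16.5-only bar stands at 30.3% and the next highest, that of the all-list runs, at 16.3%.

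The same pattern was seen when the bins were counted as a share of their own stage. Of the bins called in both E16.5 lists, 5.50% (5.30 to 5.71%) were E16.5 only in gene bodies, 3.43% (3.30 to 3.56%) up to 100 kb from a gene, 4.93% (4.77 to 5.10%) between 100 and 500 kb and 8.38% (8.15 to 8.61%) over 500 kb away. The share over 500 kb exceeded that in gene bodies on 14 of 19 autosomes. At the other stages the order was the opposite. The share of E13.5 bins that were E13.5 only was 8.99% in gene bodies and 0.624% over 500 kb away. For P0 these shares were 4.85% and 3.16%, and for P3 they were 13.6% and 0.920%. Over 500 kb from genes it exceeded the gene body value on 0 of 19 autosomes at E13.5, on 3 at P0 and on 0 at P3. Whole lists were counted in this gene-poor sequence too. Of the bins over 500 kb from a gene, 32.1% were called in E16.5 het and 29.2% in E16.5 KO, against 16.0% and 17.5% at E13.5, 27.6% and 26.9% at P0 and 22.2% and 23.1% at P3. Without the E16.5-only bins E16.5 het (30.5%) remained the highest, while E16.5 KO (27.52%) lay below P0 het (28.2%) and level with P0 KO (27.54%). Single-stage bins of the other stages were kept, so leaving out these bins could lower the E16.5 values alone.

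**Figure D4:**
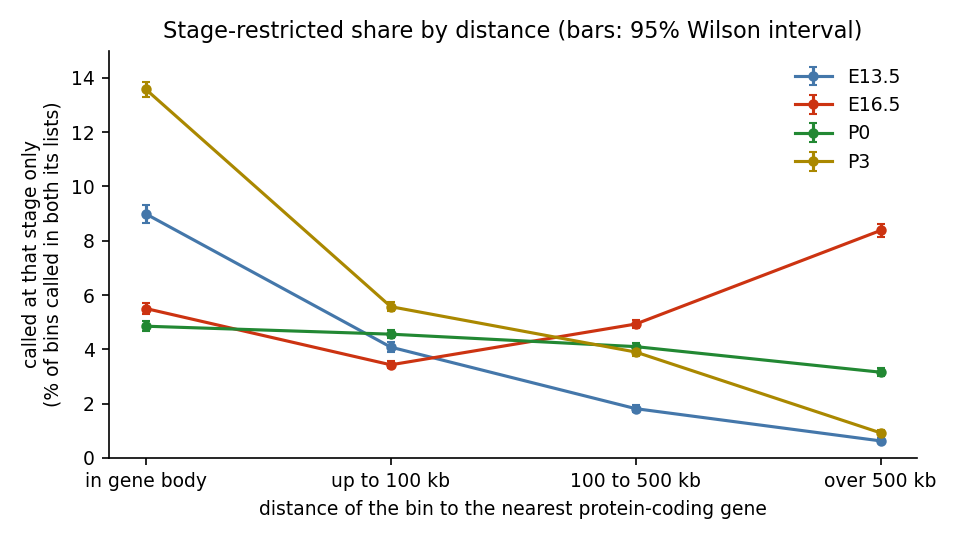
Bins called at 1 stage only as a percentage of the bins called in both lists of that stage, with 95% Wilson intervals, against distance to the nearest protein-coding gene. The E16.5 line rises from 3.43% up to 100 kb from a gene to 8.38% over 500 kb away, while the lines of the other 3 stages fall.

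The bins were unevenly spread over the genome. Per Mb there were between 2.10 bins on chromosome 11 and 8.87 on chromosome 3. As a share of the E16.5 bins they ranged from 2.93% on chromosome 19 and 3.08% on chromosome 7 to 7.15% on chromosome 16 and 7.49% on chromosome 14. Chromosomes with more gene-poor sequence had higher shares: across the 19 autosomes, the share of E16.5 bins that were E16.5 only and the share of bins over 500 kb from a gene had a Pearson correlation of 0.72 and a Spearman correlation of 0.73, a description in which all chromosomes come from the same 8 lists. In windows of 1 Mb, 375 of 2392 held no such bin and the median window held 2, whereas 173 windows (7.23%) held 50% of them. No matching window count is given for all E16.5 bins or for another set, so this spread is not shown to be particular to E16.5-only bins.

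The 5 densest windows were picked after their counts were seen. The first, on chromosome 3 (76000001 to 77000000), contains Fstl5 and held 111 E16.5-only bins in 55 runs, 23.6% of its E16.5 bins. Of this window the E13.5 lists covered 227.2 (het) and 261.9 kb (KO), the E16.5 lists 571.8 and 510.2 kb, the P0 lists 314.1 and 333.6 kb and the P3 lists 228.9 and 250.3 kb. Outside the E16.5-only bins, which the rule fixed, the E16.5 lists covered 465.1 kb in het and 403.6 kb in KO, more than any other list there (at most 330.0 kb, in P0 KO). The other four windows contain no protein-coding gene. They lie on chromosome 16 between Tmprss15 and Ncam2 (107 bins), on chromosome 14 between Slitrk1 and Slitrk6 (105 bins), on chromosome 3 between Otol1 and Sis (101 bins) and on chromosome 16 between Ncam2 and Mrpl39 (99 bins). In these windows the E16.5 lists covered between 499.8 and 620.9 kb of the 1 Mb, and the other lists between 200.7 and 395.3 kb. Outside the E16.5-only bins, both E16.5 lists (398.3 to 524.1 kb) were also above the 6 others (200.1 to 391.5 kb). All 5 windows were picked for their E16.5-only bins, and E16.5 calls were more frequent beside such bins. The coverage outside the bins is therefore not free of that choice.

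The 10 longest runs were between 9 and 13 kb. In 7 of them no base was called in any list of another stage, and the highest value in the others was 0.468 kb. The longest spanned 13 kb on chromosome 1 (28958001 to 28971000, mm10), 177.7 kb from Gm597 and 1831 kb from Phf3, of which the E16.5 het list covered 13.0 kb, the KO list of that stage 12.5 kb and the other lists nothing. A 9 kb run followed on the same chromosome (29012001 to 29021000), between the same genes. The second longest, of 11 kb on chromosome 8 (55896001 to 55907000), covered the start and part of the body of Adam29, with 11.0 kb in both E16.5 lists and 0 to 0.354 kb in the other six. Of the remaining runs, 2 lay over olfactory receptor genes, Olfr788 on chromosome 10 (129467001 to 129476000) and Olfr131 on chromosome 17 (38082001 to 38091000). The others lay between genes, on chromosome 1 between Rgs18 and Brinp3, on chromosome 4 between Ptprd and Tyrp1, on chromosome 5 between Stim2 and Pcdh7, on chromosome 14 between Pcdh20 and Pcdh9, and on chromosome 16 between Ncam2 and Mrpl39. Of the 10 runs, 8 were adjacent to a bin called at another stage and 4 had their midpoint over 500 kb from a gene.

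At least 1 E16.5-only bin had its centre in 1354 of 20665 autosomal protein-coding genes (6.55%), and 944 of these genes held a single bin. Genes with such a bin were long, with a median of 114.0 kb against 17.5 kb over all genes. A longer body holds more bins and is more likely to be counted, so this length is tied to the counting. No other set of bins was counted in this way. The table of genes used here has no exons, so exonic and intronic bins were not told apart. Only 61 genes held 5 or more bins. The 10 genes with the most held 364 bins. These were Fstl5 (a follistatin-like secreted protein, 80 bins), Naaladl2 (48), Ptprd (a receptor tyrosine phosphatase, 39), Khdrbs2 (an RNA-binding protein, 35), Cdh12 (a cadherin, 30), Cntn6 (a contactin, 29), Galntl6 (28), Nrg3 (a neuregulin, 28), Dpp10 (a subunit of potassium channels, 27) and Spock3 (a proteoglycan, 20). They are 370.7 to 2271 kb long, and a ranking by number of bins favours long genes.

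Fstl5, on chromosome 3 (76074275 to 76710010), showed the largest number of bins. Of this gene the E13.5 lists covered 140.5 (het) and 175.04 kb (KO), the E16.5 lists 375.2 and 339.1 kb, the P0 lists 188.6 and 205.1 kb and the P3 lists 142.4 and 158.7 kb. The 2 E16.5 values were the highest and did not overlap the others, and this held outside the E16.5-only bins too, where E16.5 had 299.0 kb in het and 262.3 kb in KO and the other lists at most 202.9 kb. Khdrbs2, on chromosome 1 (32172602 to 32705224), was covered over 100.5 (het) and 97.5 kb (KO) by the E13.5 lists, over 285.8 and 234.7 kb by the E16.5 lists, over 141.9 and 136.2 kb by the P0 lists and over 77.8 and 162.4 kb by the P3 lists. Its E16.5 values also lay above the others. In 9 of the 10 genes both E16.5 lists exceeded all 6 others, the exception being Galntl6, where E16.5 KO (166.8 kb) lay below P0 het (175.2 kb). The rule itself adds covered bins to E16.5. Outside those bins 5 of the 10 genes had both E16.5 lists on top (Fstl5, Khdrbs2, Cntn6, Dpp10 and Spock3). The genes were picked for these bins, so the coverage beside the bins is not free of that choice. The E16.5 het list covered more than the E16.5 KO list in all 10. It was also the longer list over the autosomes, with 292.6 against 268.7 Mb, and the part of list length was not tested.

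**Figure D5:**
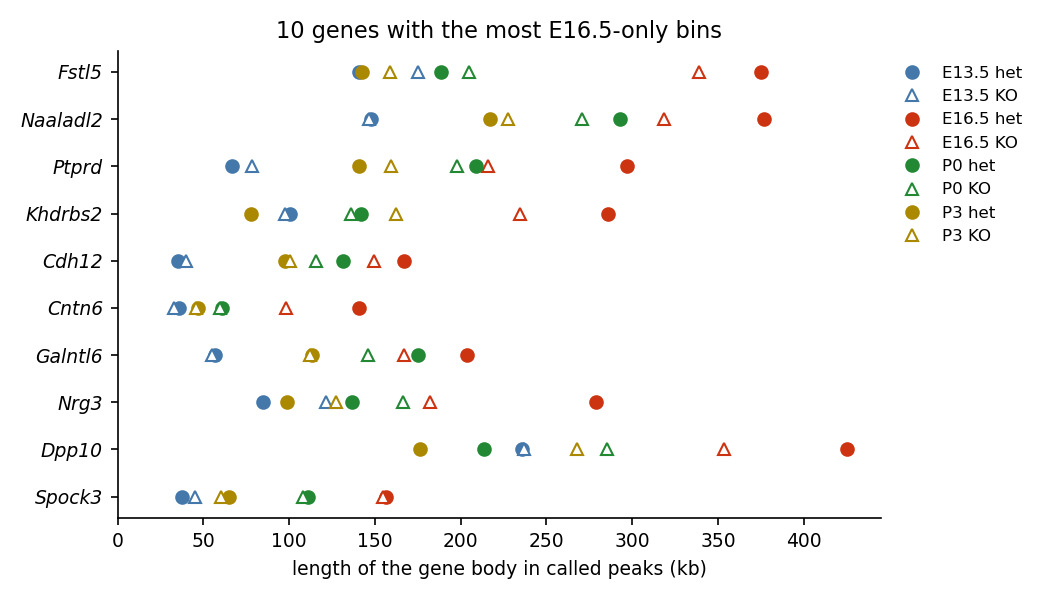
Length of the gene body in called peaks (kb, x axis) in each of the 8 lists for the 10 genes with the most E16.5-only bins, filled circles for het and open triangles for KO. The E16.5 symbols (red) lie to the right of all others in 9 genes; in Galntl6 the E16.5 KO value of 166.8 kb lies left of P0 het.

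Relative to gene length, smaller genes came first. Among genes with at least 5 E16.5-only bins, the highest shares of the body were in Adam29 (30.5%), Cylc2 (17.7%), Vmn2r94 (16.8%), Slco6c1 (13.0%), Fstl5 (12.6%), Hnf4g (10.5%), Cntn6 (7.82%), Tecrl (7.78%), Zbbx (7.08%) and Khdrbs2 (6.57%). Adam29 encodes a membrane protein of spermatogenic cells, Cylc2 a protein of the sperm head and Slco6c1 an anion transporter of the testis, while Vmn2r94 is a vomeronasal receptor gene. Adam29 (chromosome 8, 55870912 to 55906964) was covered over 8.75 (het) and 9.87 kb (KO) by the E13.5 lists, over 23.04 and 23.4 kb by the E16.5 lists, over 14.99 and 15.4 kb by the P0 lists and over 9.73 and 10.06 kb by the P3 lists. Outside its E16.5-only bins the order changed, the E16.5 lists (12.1 and 12.4 kb) then lying below the P0 lists (14.7 and 15.1 kb). Cylc2 (chromosome 4, 51216653 to 51250625) was covered over 13.8 and 14.6 kb by the E13.5 lists, over 27.7 and 24.2 kb by the E16.5 lists, over 11.9 and 12.1 kb by the P0 lists and over 6.07 and 8.99 kb by the P3 lists. Vmn2r94 (chromosome 17, 18243570 to 18285259) was covered over 2.002 and 4.23 kb by the E13.5 lists, over 27.6 and 20.2 kb by the E16.5 lists, over 7.77 and 3.804 kb by the P0 lists and over 0 and 4.01 kb by the P3 lists. In Cylc2 and Vmn2r94 both E16.5 values were above all 6 others, also outside the E16.5-only bins. These genes were likewise picked for such bins. Morc1 itself, on chromosome 16, held no E16.5-only bin, and at most 3.47 kb of its 199.7 kb was called in any list. A peak list does not show whether a gene is deleted, so these data give no check of the genotype labels.

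Gene lists were then counted in the same way, beside the 6.55% of all protein-coding genes and a density of 2.58 kb of E16.5-only bins per Mb of gene body. None of 37 genes of germ cell identity and meiosis (among them Ddx4, Dazl, Sycp3 and Piwil2) held such a bin, a count that allows a share of up to 8.11%. None of 13 pluripotency genes and none of 39 Hox genes did, with limits of 23.1% and 7.69%. Of 24 genes of chromatin and DNA methylation 2 held a bin, Atf7ip (a partner of SETDB1) and Morc3, with 1 each. Of 16 genes that mark somatic cells of the testis 1 did, Pdgfra, with 1 bin. These lists hold between 0.300 (Hox) and 1.78 Mb (germ cell genes) of gene body.

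Families of adhesion and receptor genes were mixed, and several consist of long genes, so that counts of genes are given with a density. Of 28 genes with symbols starting with Cdh 9 held a bin, at 9.83 kb per Mb, with Cdh12 (30) and Cdh18 on top. Of 13 Cntn and Cntnap genes 9 did, at 7.50 kb per Mb, led by Cntn6. Of 67 Pcdh genes 33 did, but the clustered Pcdha genes overlap each other, and the 33 genes held 21 different bins, 16 of them in Pcdh15. Of 30 Grm and Gri genes 14 did, at 3.86 kb per Mb, with 9 bins in Grik2 (a kainate receptor). Of 92 Kcn genes, which mostly encode potassium channel subunits, 13 did, at 1.69 kb per Mb. Of 18 Sox genes 1 did (Sox5, 6 bins), and of 43 Fox genes 3 did, led by Foxa3 with 3 bins. Short receptor genes had the highest densities. Of 1104 Olfr genes 26 held a bin, at 13.7 kb per Mb, and of 354 vomeronasal receptor genes 16 did, at 10.1 kb per Mb. Of 391 Zfp genes 21 did, at 2.995 kb per Mb, with 11 bins in Zfp804b. Against the 0.553% of all autosomal bins, the densities of the Olfr, vomeronasal receptor, Cdh and Cntn families were above the genome as a whole, and that of all gene bodies was below it. Single genes carried part of this. Without Cdh12 the Cdh density was 6.27 kb per Mb, and without Cntn6 the Cntn and Cntnap density was 4.24 kb per Mb, below the genome. The Olfr and vomeronasal receptor densities without the gene with the most bins were 12.3 and 8.32 kb per Mb. No test was made of any family.

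Gene starts were rarely involved, and this held for E16.5 calls at large. Of 31396 RefSeq promoter windows, 77 (0.245%) overlapped an E16.5-only bin, against the 0.553% of all bins that were E16.5 only. Windows called over at least 50% in both E16.5 lists numbered 1265 of 31396, against 10.4% of all bins. A window is shorter than a bin, so these shares are not the same measure. Of the 77 windows 38, from 37 genes, lay for at least 50% in both E16.5 lists and had no base called in the other six. Of the 37 genes 15 were olfactory receptor genes, which gave 39.5% of the 38 windows against 942 of the 31396 windows in all and 19.6% of the 1265 windows called over at least 50% in both E16.5 lists. Examples are Olfr131 and Olfr788, whose windows are printed above and were called over 300 of 300 bases in both E16.5 lists. The Adam29 window was called over 300 bases in both E16.5 lists and also in P0 KO, and over 0 bases elsewhere. The Itm2c window was called over 300 bases in E16.5 het and 249 in E16.5 KO. The 38 windows were poor in CG, as were windows called in both E16.5 lists in general. Their median was 1 CG in 300 bases with 35.5% G and C, against 7 CG and 53.0% over all windows. The 1265 windows called in both E16.5 lists had a median of 2 CG and 42.7% G and C. The 517 windows called in all 8 lists had a median of 1 CG and 41.3% G and C. Without olfactory receptor genes the medians were 2 CG and 45.0% in the remaining 23 windows. They were also 2 CG and 45.0% in the remaining 1017 windows called in both E16.5 lists, and 2 CG and 44.0% in 397 all-list windows. Most of the difference in G and C between these sets was then no longer seen. Olfactory receptor genes gave 23.2% of the all-list windows. Of the 38 windows, 8 held no CG at all (21.1%), as did 24.0% of the all-list windows. Beside Olfr genes, the starts called at E16.5 alone included Vmn1r198 and Vmn2r100. The window of Vmn1r237 was called over 300 bases in both E16.5 lists and also in P0 het and P3 KO. The windows of Zfp128 and Zfp619 overlapped an E16.5-only bin but had no called base of their own.

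Of 919 autosomal microRNA hairpins 4 (0.435%) overlapped an E16.5-only bin, a share near the 0.553% of all bins. Of these, 3 form the cluster printed above, on the minus strand of chromosome 5 within Mcm7, a gene of DNA replication. The Mir106b hairpin (138165737 to 138165818) was called over all of its 82 bases and the Mir93 hairpin (138165523 to 138165610) over all of its 88 bases in both E16.5 lists. The Mir25 hairpin (138165321 to 138165404) was called over 84 bases in het and 49 in KO, and its printed arm miR-25-3p over 22 bases in het and 0 in KO. None had a called base at E13.5, P0 or P3. The fourth, Gm51269 on chromosome 16, lies between Cmss1 and Col8a1.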

How the data were processed

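H3K9me3 ChIP-seq peaks of 16 samples in 8 groups of 2 were used, as 1 deposited list per stage and genotype with chromosome, start and end of each peak in bp. Per the submitters' processing notes, bcl2fastq 2.20, cutadapt 1.18, Bowtie2 2.3.4.1, deepTools 3.5.0, HOMER 4.10 and build mm10 were used by the authors; the role of each tool, the calling threshold, the use of the H3 samples and the pooling of replicates are not given in the sources used here. Read depth is unknown. Peak calls depend on depth and on the threshold, so a site without a call can still carry the mark.

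Bins, runs and overlaps were computed in Python 3.11.15 with numpy 2.4.6, pandas 2.3.3 and scipy 1.17.1, and checked on simulated lists. Bins ran from the first peak of each autosome. Genes and promoter sequences came from RefSeq (GRCm38.p6, the assembly of mm10), and 24 of 25 listed chromatin gene symbols matched. The 95% intervals (Wilson) hold for counting error alone; a count of 0 was given a limit of 3 counts. Genes named were the 10 with the most E16.5-only bins, the 10 with the highest share of the body among those with at least 5, the neighbours of the 10 longest runs, listed genes with a bin at their start or, per list, the gene with the most bins, and Morc1; of the olfactory receptor genes with a bin at their start examples are given, and other names in the lists and among the windows were added after their values were seen. The bins and the lists were chosen with earlier results of these data known. Alternatives changed the bin rule, the lists and the genotypes.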

Additional observations from a re-analysis of the deposited data

How the results depend on the processing

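Other settings were tried for 5 results, the number of bins, their share of the E16.5 bins and the shares of runs away from other calls, in gene bodies and over 500 kb from a gene. Those for the last were chosen after seeing the data. The number of E16.5-only bins stayed within 1.5 times in 6 of 12 alternatives. It was 6649 with 2 kb bins (each bin is longer), 8215 when no base could be called at another stage, 21486 and 24365 without the 2 lists of E13.5 and P0, 46457 in het lists alone and 26325 in KO lists alone (fewer lists exclude fewer bins). The share of the E16.5 bins was 5.06% at 25% and 5.70% at 75% of the bin, 5.56% with the longest peaks in equal numbers, 5.47% with the longer 50% of each list, 3.30% with no base elsewhere, 8.62%, 9.78% and 6.55% without E13.5, P0 and P3, 15.9% in het and 9.80% in KO. The share of runs away from other calls was 7.91% at 75% of the bin, 9.96% with 2 kb bins, 8.80% with equal numbers, 8.02% with the longer 50%, 11.0% with no base elsewhere, 9.81% without E13.5, 10.5% without P0, 12.5% in het, 8.65% in KO, 14.7% beyond 5 kb and 2.18% beyond 20 kb. The gene body share was 19.9% both at 75% of the bin and with 2 kb bins, 19.3% with equal numbers, 15.8% with the longer 50%, 20.2% with no base elsewhere, 23.9% without E13.5, 22.5% without P3, 24.5% in het and 26.0% with 5 kb on each side. The share over 500 kb from a gene was 31.8% at 75% of the bin, 33.0% with 2 kb bins, 32.7% with equal numbers, 36.7% with the longer 50%, 33.5% with no base elsewhere, 26.5%, 26.02% and 28.03% without E13.5, P0 and P3, 22.4% in het and 26.6% in KO. Where no reason is given, the cause was not tested. In 9 of the 9 alternatives that could be applied to all stages, the E16.5-only share over 500 kb was the highest of the 4 stages, at 1.81 (het lists alone) to 2.61 times that of P0. Run lengths, the overlap of genotypes, flank profiles, peak lengths, gene lists, promoters, windows and microRNAs were computed under 1 setting, apart from leaving out the E16.5-only bins or the leading gene where stated, both chosen after seeing the data. No paired analysis was possible because the lists carry no replicate number, and for the same reason no replicate could be left out. Depth is unknown, so weak H3K9me3 at another stage cannot be told from none.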

Other observations

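The X chromosome was outside the rule, and the same definition was applied to it as a separate count. It held 740 E16.5-only bins in 540 runs, 6.27% of the 11810 X bins called in both E16.5 lists (95% Wilson interval 5.84 to 6.72%), with a longest run of 10 kb. Of these runs, 18.7% (15.6 to 22.2%) had their midpoint over 500 kb from a protein-coding gene and 7.78% lay in a gene body. The share over 500 kb was 13.4% (11.2 to 15.95%) for the 791 P0-only runs of X, an interval that overlaps, and 7.03% (3.74 to 12.8%) for the 128 E13.5-only runs. None of the 73 P3-only runs of X lay that far from a gene, which allows a share of up to 4.11%. X differed from the autosomes, where P3 had the most single-stage bins. There were 1008 P0-only bins on X, 8.23% of the 12248 X bins called in both P0 lists, a share above that of E16.5. The 81 P3-only bins were 1.16% of 6990 X bins, and the 164 E13.5-only bins were 3.05% of 5369.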
